A study of Drosophila melanogaster with 2 samples.

Results

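The region described here spans 220 kb of chromosome arm 2L of Drosophila melanogaster, from base 15300001 onwards in the dm3 build. It is named for escargot (esg) and snail (sna), which with worniu (wor) between them are neighbours of the Snail family of zinc-finger transcription factors. It is defined by these coordinates and no measured value enters the rule, but earlier results of these data were known when it was picked. It holds 440 bins of 1 kb over both homologs, of 46024 such bins on 2L and 238064 on the 5 large arms. For background, 2L was cut into 104 windows of 220 kb, of which the region is one, and 300 kb flanks were read on each side. The data are Hi-C read pairs from whole F1 hybrid embryos aged 2 to 4 h, from a cross of DGRP-057 mothers with DGRP-439 fathers, both inbred lines. There was 1 condition in 2 biological replicates, so no groups were compared and no p-values are given. Whole embryos hold many cell types, and each value is an average over all their nuclei.

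Snail protein is known for specifying the mesoderm of the fly embryo, Worniu for its role in neural stem cells, and Escargot for the maintenance of diploid imaginal cells and of stem cells. In the RefSeq annotation of Release 6, which is not the build of the deposited pairs, esg, wor and sna follow each other on 2L in this order. That annotation has 7 genes between esg and wor, 2 of them protein-coding (CG15258 and CG44869), and 5 between wor and sna, 1 of them protein-coding (CG4161). No dm3 annotation was used here, so the genes are not placed on the maps and the match of the name to the coordinates was not checked.

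In flies, the maternal and paternal copies of a chromosome come to lie side by side in somatic nuclei, and they first do so in the early embryo. Hi-C joins pieces of DNA that are near each other in the nucleus and sequences both ends of the joined piece. Where the parents differ in sequence, each end can be given to the maternal or the paternal homolog. A pair with its ends on different homologs of 2L is called trans-homolog, and one with both ends on the same homolog is called cis. A domain is a stretch whose parts contact each other more than they contact the neighbouring sequence, and the place where contacts drop is a boundary.

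Replicate 1 held 24390496 deposited pairs and replicate 2 held 24659056. In the region, 69894 maternal and 65979 paternal read ends were counted in replicate 1, and 70707 maternal and 66309 paternal read ends in replicate 2, so the maternal homolog had 51.4% and 51.6% of them. At separations of 3 to 220 kb with both ends in the region there were 390 trans-homolog and 8479 cis pairs in replicate 1, and 396 trans-homolog and 9466 cis pairs in replicate 2. Pooled, this was 1.60 times the pairs of the median window of 2L, and 16 of the 104 windows held more. In the pooled 1 kb map, 30 of 220 maternal and 36 of 220 paternal bins had too few reads and were masked, against 25.0% and 25.3% of the bins of 2L. Inward-facing pairs at 300 to 600 bp are mostly pieces of DNA that were never joined to another, so those that seem trans-homolog estimate how often an end was given to the wrong homolog. In the region this homolog misassignment was 0.250% (152 of such pairs against 60750 cis pairs, 95% exact binomial interval 0.212 to 0.292%), with 0.263% in replicate 1 and 0.236% in replicate 2. The median window of 2L had 0.164%. Intervals here and below cover counting error only.

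In the pooled cis maps in 4 kb bins, most of the region lay in 1 long domain of each homolog, which ended near the right end of the region. How far the maternal domain reached to the left depended on the replicate and the threshold. In 4 kb bins, the insulation score is the log2 contact frequency between the 10 bins left and the 10 bins right of a bin, over the median of 2L, so that low values mark boundaries. The lowest score of the region stood at 2L 15496001 to 15500000, 196 kb from its start. There the trans-homolog score was −1.85, the cis maternal score −1.94 and the cis paternal score −1.53. As depths of the minimum relative to its surroundings (prominence), these were 2.40, 2.96 and 2.41. Among the 4 kb boundaries of 2L, the maternal prominence ranked 2 of 263, the paternal 5 of 255 and the trans-homolog 41 of 423. These ranks moved with the library and the bin size. In replicate 2 alone they were 19 of 284 (maternal) and 21 of 281 (paternal), and in pooled 1 kb bins 34 of 288 and 43 of 292. In replicate 1 the boundary was called at the same bin in all 3 maps, with prominences of 2.40 (trans-homolog), 3.71 (cis maternal) and 2.23 (cis paternal). In replicate 2 the trans-homolog map had it at that bin with a prominence of 2.52, and both cis maps had it 1 bin to the right, with 2.07 (maternal) and 1.88 (paternal). It was thus found in each of the 6 maps made from single replicates.

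The left border of the domain lay outside the region. A boundary was called at 2L 15272001 to 15276000 in the trans-homolog map (score −1.42) and in the cis paternal map (−1.07), and 1 bin to the left in the cis maternal map (−0.91), 28 to 32 kb before the start of the region. From this border to the right boundary, the cis paternal map in 4 kb bins held no other call over 224 kb. Of the 254 intervals between neighbouring cis paternal boundaries of 2L, 6 were longer, and their median was 76 kb. The cis maternal map had 1 further, shallow call at 15308001 to 15312000 (prominence 0.37), which left an interval of 188 kb, with 12 of 262 intervals longer. The shallow call was seen in replicate 1 and not in replicate 2. Replicates alone added further shallow calls in the cis maps, 136 kb from the start (maternal, replicate 1), 20 kb (paternal, replicate 1), and 36 and 164 kb (maternal, replicate 2). Because of these calls, the maternal interval that ends at the right boundary was 60 kb in replicate 1 (162 of 280 intervals longer) and 36 kb in replicate 2 (227 of 283 longer), while the paternal one was 176 kb in replicate 1 and 232 kb in replicate 2. With a prominence of at least 0.5 the maternal interval was 228 kb in the pooled map and 232 kb in replicate 2, but 60 kb in replicate 1, where the call at 136 kb remained. All these intervals are of 4 kb bins. In pooled 1 kb bins, described below, both homologs had calls inside the long domain. Among them were the bins that start at 15334001 (maternal, prominence 0.49) and 15333001 (paternal, prominence 0.92), each found in both replicates.

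**Figure D1:**
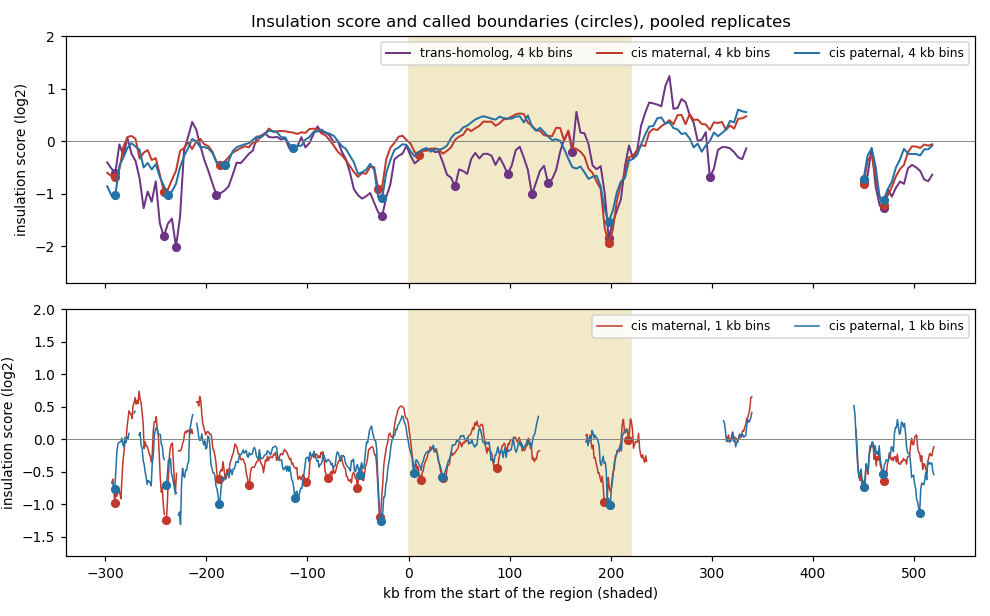
Insulation score (log2, y axis) against distance from the start of the region (kb, x axis; region shaded) in 4 kb bins (top) for the trans-homolog map and for cis on either homolog, and in 1 kb bins (bottom) for the cis maps, pooled replicates; circles are called boundaries and gaps are unscored bins. All 3 maps fall to their lowest value of the region at 196 kb, from −1.53 to −1.94, while the trans-homolog line runs below the cis lines between about 40 and 140 kb.

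In 1 kb bins, which resolve smaller features (window of 20 bins, prominence of at least 0.3), 5 cis maternal and 3 cis paternal boundaries were called in the region. They made up 3.05% of 164 scored maternal bins and 1.92% of 156 scored paternal bins, while over 2L the share was 2.3% for maternal and 2.34% for paternal bins, so the region did not stand out in their number. The median window held 3 in either map. The maternal calls were the bins that start at 15312001, 15334001, 15387001, 15493001 and 15517001, with prominences of 0.90, 0.49, 0.53, 1.47 and 0.32. The paternal calls started at 15305001, 15333001 and 15499001, with prominences of 0.43, 0.92 and 1.37. Calls 33 to 34 kb from the start were thus 1 kb apart on the homologs, and the pooled calls at the right boundary were 6 kb apart. In each replicate alone, both homologs had the call at the right boundary in the bin that starts at 15499001. Of the maternal calls, 4 of 5 were found within 16 kb in both replicates and 3 of 5 in the paternal map. Of the paternal calls, 2 of 3 were found in both replicates and all 3 in the maternal map. Over 2L, 54.2% of maternal and 53.1% of paternal 1 kb calls were found in both replicates. The stretch from about 130 to 175 kb had too few visible 1 kb bins for a score, so boundaries there could not be called at this bin size.

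The trans-homolog map in 4 kb bins had 6 boundaries in the region, or 11.3% of 53 scored bins, against 8.04% over 2L. They started at 15344001, 15396001, 15420001, 15436001, 15460001 and 15496001, with prominences of 0.75, 0.40, 0.92, 0.32, 0.39 and 2.40. All but the call at 15460001 were found within 16 kb in both replicates, as were 338 of 423 trans-homolog boundaries over 2L (79.9%). In replicate 1 the same call, at 15420001, was the match of both 15420001 and 15436001. Only the call at 15496001, the right boundary, lay within 16 kb of a pooled 4 kb cis boundary of either homolog. This makes 1 of 6, while over 2L 298 of 423 trans-homolog boundaries (70.4%) did. Other cis calls lay within 16 kb of further ones. In 1 kb bins these were calls of both homologs beside 15344001 and a maternal call beside 15396001. In 4 kb bins of single replicates they were maternal calls 136 kb (replicate 1) and 36 and 164 kb (replicate 2) from the start. The median window of 2L held 4 trans-homolog boundaries (range 1 to 7), so the number in the region was not unusual for this map. The median trans-homolog score over the region was −0.42, against 0.03 for the cis maternal and 0.01 for the cis paternal map. The trans-homolog map rested on 786 pairs at 3 to 220 kb in the region, and with a prominence of at least 0.5 it held 3 boundaries.

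Contacts across the right boundary were compared with contacts on either side of it, over 160 kb to each side and at separations of 20 to 160 kb. Observed pairs were divided by the pairs expected from the mean of each diagonal of 2L and from the visibility of the bins. Across the boundary, trans-homolog pairs came to 0.53 of the expected number (68 pairs, 95% exact Poisson interval 0.41 to 0.67), cis maternal pairs to 0.49 (368 pairs, 0.44 to 0.54) and cis paternal pairs to 0.55 (410 pairs, 0.50 to 0.60). On the side of the region, the values were 0.90 for trans-homolog (0.80 to 1.01), 1.38 for cis maternal (1.34 to 1.44) and 1.44 for cis paternal pairs (1.39 to 1.49). On the far side, they were 1.11 for trans-homolog (0.95 to 1.29), 1.42 for cis maternal (1.35 to 1.50) and 1.35 for cis paternal pairs (1.28 to 1.42). In the pooled pairs the intervals inside and across do not overlap in any of the maps. In replicate 2 alone they overlap for trans-homolog pairs (0.75 to 1.05 inside and 0.38 to 0.76 across). The ratio of contacts inside to contacts across was 1.70 in the trans-homolog map (replicate 1, 1.81; replicate 2, 1.64). It was 2.82 in the cis maternal map (replicate 1, 3.05; replicate 2, 2.76) and 2.63 in the cis paternal map (replicate 1, 2.60; replicate 2, 2.72). The position was taken from the minimum of these maps, so these ratios describe the size of the drop and are no test of it.

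Trans-homolog contacts were sparse in the region relative to cis contacts at short separations, and not at long ones. At 3 to 10 kb there were 71 trans-homolog pairs to 2608 cis pairs in replicate 1 and 68 to 2788 in replicate 2, or 2.58% ± 0.20 of cis pairs (SD, n = 2). The median window of 2L had 4.39% in the pooled pairs, and 6 of 104 windows were lower than the region. At 10 to 30 kb the region had 3.67% ± 0.62, from 102 and 95 trans-homolog pairs, against a window median of 5.83%, and 2 of 104 windows were lower. At 30 to 100 kb it had 5.54% ± 0.20 (152 and 161 pairs), against 7.34%, and 6 windows were lower. At 100 to 220 kb it had 9.29% ± 0.26 (65 and 72 pairs), against 8.15%, and 65 of 99 windows with enough pairs were lower. As a ratio to the window median, the pooled region thus stood at 0.59, 0.62, 0.75 and 1.14 from the shortest to the longest range. The same order was found in replicate 1 (0.56, 0.66, 0.76 and 1.11), while in replicate 2 the shortest ranges were close (0.59, 0.57, 0.75 and 1.14).

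**Figure D2:**
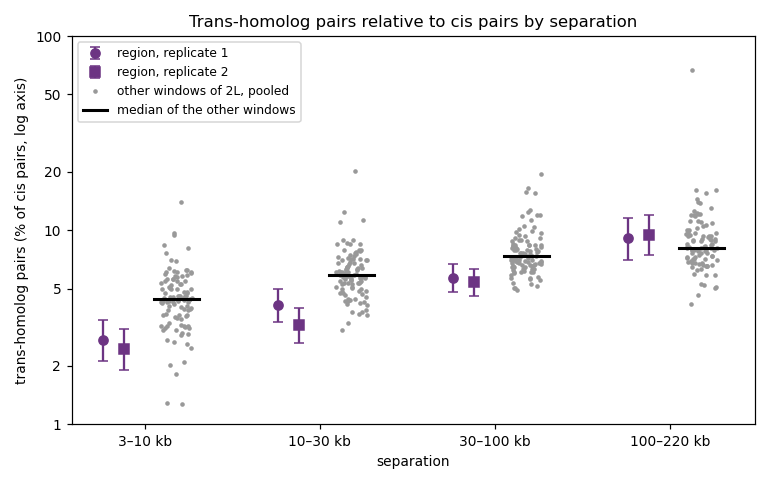
Trans-homolog pairs as a percentage of cis pairs (y axis, log scale) with both ends in the region, at 4 separation ranges (x axis), for replicate 1 (circle) and replicate 2 (square) with 95% exact Poisson intervals, beside the other windows of 2L (grey points, pooled; line, median). The region lies near the bottom of the windows at 3 to 10 kb (2.58% against a median of 4.39%) and above their median at 100 to 220 kb (9.29% against 8.15%).

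Over 3 to 100 kb, trans-homolog pairs came to 4.19% of cis pairs in replicate 1 (325 to 7765) and 3.72% in replicate 2 (324 to 8706), a mean of 3.95% ± 0.33 (SD, n = 2). The pooled value was 3.94% (95% exact Poisson interval 3.64 to 4.26%), the median window had 5.67%, and 3 of 104 windows were lower. The left flank had 4.77% (4.47 to 5.08%) and the right flank 4.81% (4.35 to 5.30%), so both lay above the region beyond counting error in the pooled pairs. In single replicates the left flank had 5.23% and 4.38%, and the right flank 5.35% and 4.33%. Their intervals overlapped that of the region in the same replicate, except for the left flank in replicate 1 (4.77 to 5.73% against 3.74 to 4.67%). In the right flank, 46.7% of the 1 kb bins of either homolog were masked. Misassigned cis pairs add to the trans-homolog count, and their estimated share in the region was above that of the median window, while the trans-homolog share was below it. Where both ends had to reach a mapping quality of 30, the region stood at 0.70 of the window median (155 trans-homolog pairs) and with 60 at 0.57 (32 pairs), against 0.69 over all pairs.

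The share was low in the middle and in the left end of the region, and nearer to that of other windows in the right end. The ends were taken as the first and the last 60 kb, and the middle as the 100 kb between them. Within the middle, trans-homolog pairs came to 2.66% of cis pairs in replicate 1 (64 to 2405) and 2.88% in replicate 2 (76 to 2641), with 2.77% pooled against 5.35% for the middle of the median window, and 3 of 104 windows were lower. Within the left end the share was 3.89% in replicate 1 and 2.77% in replicate 2, with 3.30% pooled against 5.02%, and 13 of 101 windows were lower. Relative to the median window, the middle and the left end stood at 0.46 and 0.70 in replicate 1 and at 0.56 and 0.56 in replicate 2, so their order rests on replicate 1. Within the right end it was 4.86% and 4.24%, with 4.53% pooled against 4.89%, and 35 of 102 windows were lower. Between parts, the left end and the middle had 5.34% against 7.03%, the middle and the right end 8.55% against 6.90%, and the left end and the right end 8.19% against 8.40%. The right end held the fewest reads, with 1787 cis pairs within it, against 4639 within the left end.

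The pairing score was read bin by bin. It is the log2 mean corrected trans-homolog contact frequency of a 4 kb bin and the 3 bins to each side, so that a higher, less negative score means more contact between homologs. The median over the region was −10.79 in replicate 1 and −10.77 in replicate 2, while the median of 2L was −9.70 and −9.90. In the pooled map it was −10.80, against −9.82 for 2L, and 11 of 102 windows had a lower median. Of the 53 scored bins of the region, 52 lay below the median of 2L in the pooled map, as did 47 of 48 in replicate 1 and 43 of 51 in replicate 2. Scores of neighbouring bins share contacts, so these bins are not independent. The pooled median was −10.69 in the left end, −11.15 in the middle and −10.13 in the right end, and it was −10.23 in the left flank and −10.56 in the right flank, where many bins were masked. In both replicates the middle was the lowest of the 3 parts (−11.43 and −11.01). The highest pooled score was −9.39 at 15456001 to 15460000 and the lowest −11.56 at 15444001 to 15448000, both next to a masked stretch, while the 5th percentile of 2L was −11.92. The difference from 2L was −0.98 in the pooled map and was smaller without iterative correction (−0.44), at a mapping quality of at least 30 (−0.29) and at a mapping quality of at least 60 (−0.58).

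**Figure D3:**
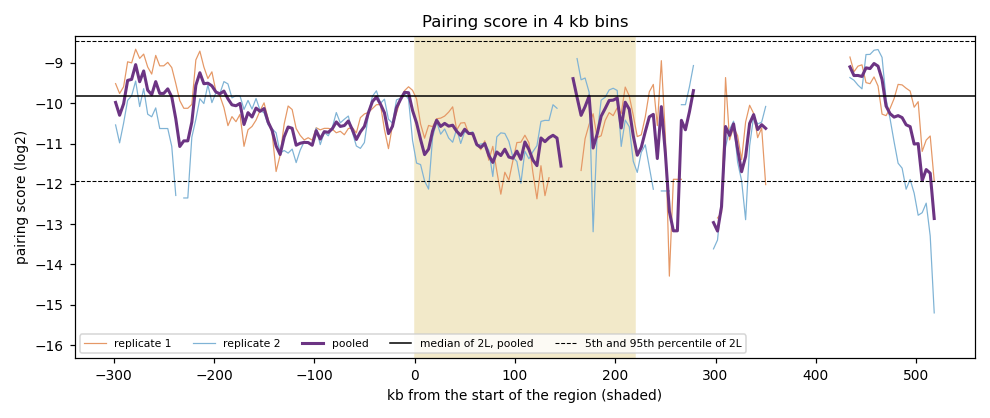
Pairing score (log2, y axis) in 4 kb bins against distance from the start of the region (kb, x axis; region shaded) for the pooled map and each replicate, with the median and the 5th and 95th percentiles of 2L as lines. The pooled score of the region lies between −11.56 and −9.39 and below the median of 2L of −9.82 in 52 of 53 bins, of which neighbouring ones share contacts.

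Taken over their full 60 kb, the ends of the region contacted each other more often than expected for their distance, in cis and between homologs. For this comparison, corrected contacts between the first and the last 60 kb were divided by the contacts expected from the diagonals of 2L. Trans-homolog contacts stood at 1.85 in replicate 1 (36 pairs, 95% exact Poisson interval 1.29 to 2.56) and 1.79 in replicate 2 (30 pairs, 1.21 to 2.55), a mean of 1.82 ± 0.041 (SD, n = 2). Cis maternal contacts stood at 2.04 (198 pairs) and 2.20 (214 pairs), a mean of 2.12 ± 0.11, and cis paternal contacts at 2.05 (187 pairs) and 1.95 (207 pairs), a mean of 2.00 ± 0.070. For pooled pairs, the median window of 2L had 0.73 for trans-homolog, 0.81 for cis maternal and 0.89 for cis paternal contacts. Higher values than that of the region were found in 10 of 94 windows for trans-homolog contacts, 2 of 93 for cis maternal and 4 of 94 for cis paternal contacts. The right end spans the right boundary, and its last 20 kb did not share the excess in cis. In pooled 20 kb pixels this stretch stood at 0.87, 0.84 and 0.91 in cis with the successive parts of the left end. The trans-homolog values of these pixels were 1.29 (6 pairs), 0.15 (1 pair) and 0.90 (6 pairs).

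The replicate values of the maternal and paternal homolog overlapped in the contact between the ends. Split by orientation, trans-homolog contacts with the maternal homolog at the left end stood at 2.01 (17 pairs) in replicate 1 and 1.17 (15 pairs) in replicate 2, and those with the paternal homolog at the left end at 1.69 (19 pairs) and 2.41 (15 pairs). These orientations overlapped, and at 15 to 19 pairs no difference between them was detectable. A value of at least 2 in both replicates, a threshold set with the values known, was reached by the region in the cis maternal map only, as by 5.38% of windows in that map, 3.23% in the cis paternal and 2.13% in the trans-homolog map. A sum that gives sparse bins little weight, added after the data were seen, lowered the pooled values to 1.50 for trans-homolog, 1.80 for cis maternal and 1.82 for cis paternal contacts, with 8, 7 and 5 windows higher.

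**Figure D4:**
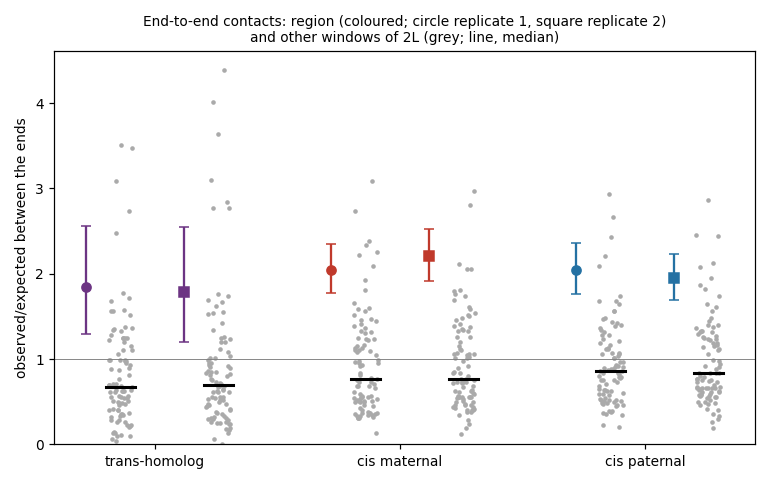
Observed over expected contacts between the first and last 60 kb (y axis) of the region (coloured, with 95% exact Poisson intervals; circle replicate 1, square replicate 2) and of the other windows of 2L (grey; line, median), for each map (x axis). The region stands between 1.79 and 2.20, above the median window in every map and replicate, with some windows higher in each.

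In pixels of 20 kb inside the region, values over expectation were highest far from the diagonal. Of 45 pixels at 40 to 200 kb, 5 trans-homolog and 6 cis pixels reached an observed over expected value of at least 2 in both replicates, or 11.1% and 13.3%, against 4.68% and 3.01% over 2L. All 6 cis pixels and 3 of the 5 trans-homolog pixels joined the left end to the stretch from 140 to 200 kb. A single pixel was in both sets, that of 20 to 40 kb with 180 to 200 kb. It had 2.17 in replicate 1 (5 pairs) and 3.04 in replicate 2 (7 pairs) in the trans-homolog map, and 2.75 (66 pairs) and 2.47 (60 pairs) in cis. The trans-homolog pixel with most pairs among the 5 joined 20 to 40 kb with 120 to 140 kb, at 2.23 (13 pairs) and 2.87 (19 pairs). The highest trans-homolog value, 5.19 pooled at 20 to 40 kb with 140 to 160 kb, rested on 3 pairs, since few bins of that stretch are visible. On the diagonal the pooled trans-homolog value was below the cis value in each of the 11 pixels, but by unequal amounts. It was 0.28 in the first 20 kb, 0.24 at 60 to 80 kb and 0.21 at 120 to 140 kb, against cis values of 0.79, 0.82 and 0.80. It came nearer to cis at 20 to 40 kb (0.71 against 0.98), at 180 to 200 kb (0.86 against 1.09) and in the last 20 kb (0.85 against 0.97). Across the 55 pixels off the diagonal, the rank correlation (Spearman) was 0.49 for the trans-homolog map against the cis map and 0.88 for the maternal against the paternal cis map. Over 11175 such pixels of 2L these were 0.51 and 0.72. Neighbouring pixels share bins and are not independent, and the trans-homolog pixels hold few pairs.

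**Figure D5:**
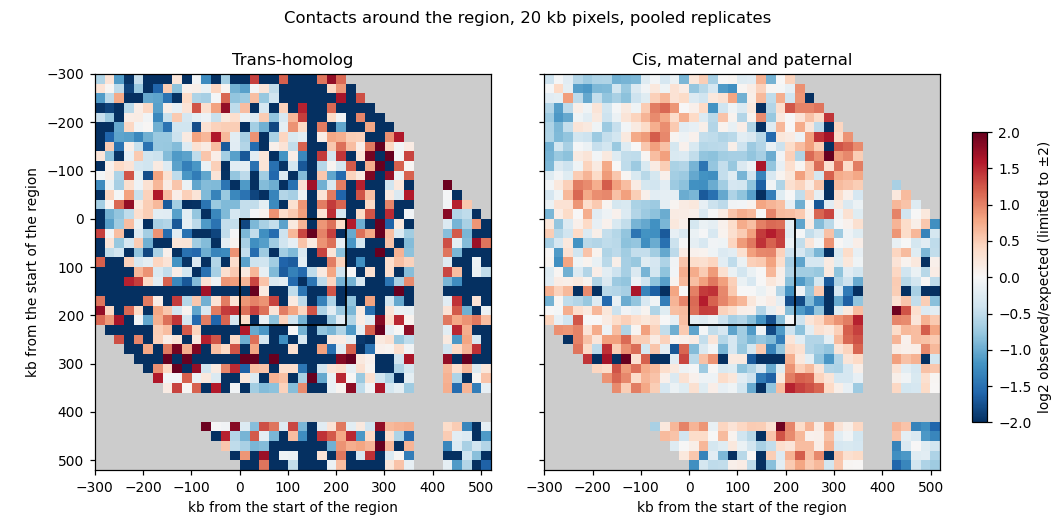
Observed over expected contacts (log2, colour, limited to ±2) in 20 kb pixels for trans-homolog (left) and summed cis (right) pairs, pooled replicates, with both axes in kb from the start of the region, which is outlined; grey pixels are masked or were not computed, and dark blue in the trans-homolog map includes pixels with no pairs. In both maps contacts of the left end with 160 to 200 kb are high. The pixel of 20 to 40 kb with 180 to 200 kb stands at 2.58 (trans-homolog) and 2.61 (cis). The corner pixel of the outline, 0 to 20 kb with 200 to 220 kb, stands at 1.29 and 0.87. Along the diagonal the trans-homolog values run from 0.21 at 120 to 140 kb to 0.86 at 180 to 200 kb, apart from 1 pixel with no pairs.

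A single strongest pixel was chosen in replicate 1 as the 10 kb pixel between the ends with the highest cis value, and was read in pairs that did not choose it. It joined 15320001 to 15330000 with 15480001 to 15490000, 160 kb apart, and had an observed over expected value of 4.98 (29 pairs) in replicate 1. In replicate 2 the cis value of that pixel was 3.48 (20 pairs, 95% exact Poisson interval 2.13 to 5.38). In the trans-homolog map it held 0 pairs in replicate 1 and 3 in replicate 2, a pooled value of 2.75 whose interval reached down to 0.57, so a trans-homolog contact above expectation was not detectable at this depth. When replicate 2 chose, it took another pixel, 15340001 to 15350000 with 15490001 to 15500000, which stood at 2.07 in replicate 1 (16 pairs, 1.18 to 3.36). Set against the ring of neighbouring pixels instead of the diagonals, the first pixel came to 1.59 in replicate 2 (0.97 to 2.45). The excess in cis was thus spread over contacts with the sequence up to the right boundary, and was not limited to the left end. In pooled 20 kb pixels, the stretch that starts at 160 kb stood at 2.19, 2.98 and 2.27 in cis with the successive parts of the left end. With the successive parts of the middle it stood at 1.96, 1.74, 1.58, 1.18 and 1.04. With the 20 kb just before the region it stood at 1.97. These pairs do not place the excess at 1 pixel.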

How the data were processed

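Hi-C pairs of 2 replicates of F1 hybrid embryos were analysed. The authors trimmed and aligned the reads with BWA 0.7.15 to a dm3-based genome that holds both homologs, retained uniquely mapped pairs and removed duplicates. The deposited files list each end's position, strand and homolog, with no normalization. Mapping quality, deposited for both ends, is an aligner score (1 to 60 here) and was not filtered further. From these, pairs were counted by homolog. Maps used contacts of at least 3 kb, with bins under 10 read ends or a MADmax of 7 masked. The 5 large arms were corrected iteratively up to a relative variance of 1e-05 or 100 iterations. Windows with under 60% of their pixels visible were left out of the end-to-end comparison, and those with under 100 cis pairs out of the trans-homolog shares (under 50 for single parts of a window). The named loci are the region, its 60 kb ends, middle and 300 kb flanks, every boundary called in it and the strongest end-to-end pixel; further 20 kb pixels were named after their values were seen. The region, the loci and the comparisons were chosen with earlier results of these data known. No sequences are shown, since no genome of this build was used here. Alternatives changed bin size, window, prominence, correction, mapping quality, separation and replicates. The calculations were tested on simulated data. Python 3.11.15, numpy 2.4.6, scipy 1.17.1, pandas 2.3.3 and matplotlib 3.10.9 were used.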

Additional observations from a re-analysis of the deposited data

How the results depend on the processing

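Of 85 alternative values, 42 differed from the reported one by less than the spread between replicates (counts of boundaries by at most 1.5 times). Another 39 differed by more without turning round, some of them larger and some smaller than the reported value, and 4 turned round. Causes were not tested. No paired analysis was possible because there is 1 group. Pairs relative to the median window came to 1.80 at a mapping quality of at least 60. Misassignment was 0.108% at a mapping quality of at least 30 and 0.0206% at 60. Cis maternal boundaries numbered 1 with a window of 40 bins, 3 with a prominence of 0.5, 2 in 4 kb bins and 2 at mapping quality 30. Cis paternal boundaries numbered 10 with a window of 10 bins, 1 in 4 kb bins and 5 without correction, and 4 to 5 with a replicate left out. Trans-homolog boundaries numbered 3 with a prominence of 0.5. The pairing score difference from 2L was −1.26 with W = 1, −0.44 without correction, and −0.29 and −0.58 at mapping qualities of 30 and 60. Trans-homolog over cis pairs came to 3.11% at 3 to 30 kb, 5.16% at 10 to 220 kb and 3.12% at mapping quality 60.

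End-to-end contacts with ends of 40 kb were 1.69 (trans-homolog), 1.88 (cis maternal) and 1.62 (cis paternal), and with 80 kb 1.65 and 2.37 (trans-homolog and cis maternal). Without correction they were 2.57, 2.98 and 2.88 in the same order as for 40 kb, at mapping quality 30 they were 2.09, 1.97 and 1.47, and with expected pairs from the correction weights 1.50, 1.80 and 1.82, a choice made after the data were seen. With expected values from the 5 large arms trans-homolog contacts were 2.10. With a replicate left out they ranged from 1.79 to 1.85 (trans-homolog) and from 1.95 to 2.05 (cis paternal). The strongest pixel stood in cis at 1.59 against its ring and at 5.76 without correction. Other settings chose other pixels, with a cis value of 2.07 when replicate 2 chose and 0 in 4 kb bins, where the choice rested on 2 pairs. The trans-homolog value of the pixels so chosen was 0.64 when replicate 2 chose, and 0 in 4 kb bins and at mapping quality 30, which also took another pixel. Depth limits every trans-homolog value of single pixels.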
